A study of Sus scrofa with 8 samples.

Results

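Described here are 40 skeletal muscle genes, listed as fast fibre, slow fibre, muscle metabolic or shared sarcomere and triad genes, in pig backfat. They were chosen by the high signal of muscle genes on 1 array, KNP replicate 2, against the other 7 in earlier results of these data, so the difference of that array from the other 7 is given as a description with no test. Of the 40 genes, 30 had a probe set annotated with their symbol alone, among 6765 such genes on the array. The 30 genes were measured by 40 probe sets of 23999 that are not controls, with 1 probe set for 23 genes and several for 7. The 10 genes with none were the fast myosin heavy chains MYH1 and MYH4, ACTN3, MYBPC2, CASQ1, PVALB, MB, ACTA1, LDB3 and CSRP3, so skeletal actin, myoglobin and parvalbumin were not analysed here.

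Skeletal muscle fibres come in fast and slow types, which build the same contractile machine from different members of the same protein families. In the sarcomere, myosin heavy chains with their light chains form the thick filament, actin with tropomyosin and the troponin complex forms the thin filament, and calcium released through the ryanodine receptor binds troponin C to start contraction. Fast fibres rely mainly on glycogen and glycolysis, and slow fibres more on oxidation. Backfat is the subcutaneous adipose tissue over the back.

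Total RNA from backfat taken from the middle of the back was hybridised to 1-colour Affymetrix GeneChip Porcine Genome Arrays, 1 array per sample. There were 4 samples of KNP pigs, 7 months old, and 4 of YS pigs, 6 months old, kept under the same conditions. In 1 label YS stands for Yorkshire, and no label gives the full name of KNP. Breed and age cannot be told apart. No label says that each sample came from a different animal, so the p-values reflect the scatter of the samples at hand, which may be technical. The number of arrays limits the precision of every value.

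Several arrays stood apart from the rest. The deposited signal had been scaled to the same trimmed mean on every array, but the median signal ran from 158.2 to 263. The 95th percentile of 23 control probe sets that have no target in pig RNA, used here as a no-target level, ran from 40.6 on YS replicate 2 to 161 on YS replicate 4, and was 115 on KNP replicate 2. The 3'/5' log2 difference of the actin, GAPDH and elongation factor controls, a sign of RNA quality, was 8.54 on KNP replicate 1, 5.88 on KNP replicate 2 and 4.40 on YS replicate 4, against 2.12 to 3.17 on the other 5. Differences below are of log2(signal + 16), folds are on that scale and understate changes of dim probe sets, and where a gene has several probe sets, the one brightest on average stands for it. Signals of different probe sets cannot be set against each other, so fast and slow genes are compared only through the difference of KNP replicate 2 from the other 7 arrays.

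All 4 classes of muscle gene were high on KNP replicate 2, and the fast fibre genes stood out most. The median difference of KNP replicate 2 from the mean of the other 7 arrays was 7.28 for 8 fast fibre genes (155-fold), 4.83 for 6 metabolic genes (28.4-fold), 3.58 for 8 shared sarcomere and triad genes (12-fold) and 2.79 for 8 slow fibre genes (6.91-fold). Over all 6765 named genes the median was 0.06. Of the 8 fast fibre genes, 6 were above the no-target level on at most 1 of the other 7 arrays, so the folds depend on dim values. With signals below each array's no-target level raised to it, the medians were 6.24 (75.5-fold) for fast fibre genes, 4.64 (24.9-fold) for metabolic genes, 2.71 (6.54-fold) for shared genes and 1.99 (3.96-fold) for slow fibre genes. Of the 40 muscle probe sets, 28 (70%) were at least 4-fold above the mean of the other 7 arrays, where 213 of 23999, or 0.888%, were so over the whole array. On KNP replicate 2, 29 of the 40 exceeded every other array, as did 12.1% of all probe sets. These counts rest on the contrast that chose the genes. In bulk tissue, more muscle cells and more RNA per muscle cell cannot be told apart.

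**Figure D1:**
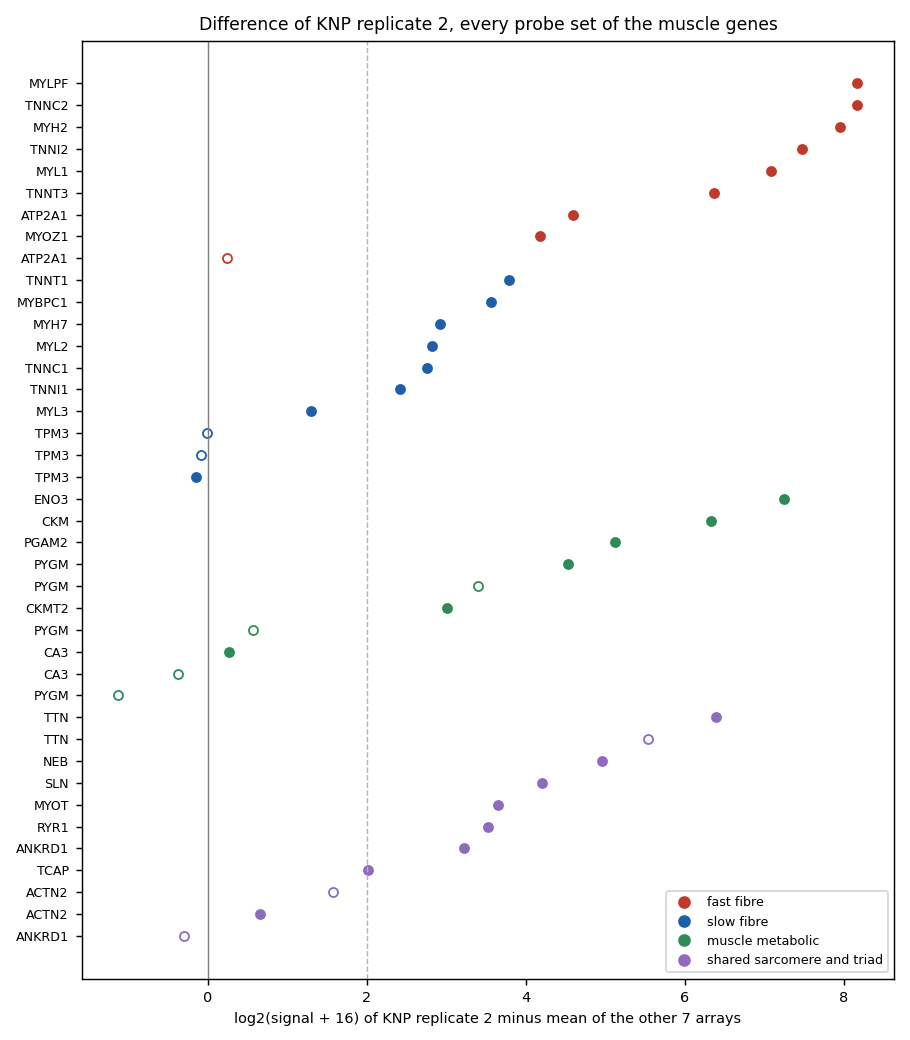
Difference in log2(signal + 16) between KNP replicate 2 and the mean of the other 7 arrays (x axis) for each of the 40 muscle probe sets (y axis, by gene), coloured by class. Filled points are the probe sets used for the gene, open points are other probe sets of the same gene, and the dashed line marks 4-fold. The 8 fast fibre genes lie between 4.18 and 8.17, and the 8 slow fibre genes between -0.15 and 3.79.

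In the thick filament, each fast form differed more than its slow form. MYH2, a fast oxidative (type 2A) myosin heavy chain, had a signal of 9596 on KNP replicate 2, and 1.52 to 113.1 with a median of 14.1 on the other 7 arrays. It was above the no-target level on 0 of those 7, so only a bound holds, at least 98.1-fold higher on KNP replicate 2. The heavy chains of fast fibres are close in sequence, and MYH1 and MYH4 had no probe set of their own, so the MYH2 signal cannot be assigned to that chain alone. MYH7, the slow and cardiac beta heavy chain, was at 554 on KNP replicate 2, and at 13.0 to 171 with a median of 46.6 on the others, a 7.54-fold difference.

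MYLPF, the fast regulatory light chain, was at 11311 on KNP replicate 2 and at 3.79 to 81.1 with a median of 24.2 on the others. The log2 difference was 8.17 beside an SD of 0.73 over the 7 arrays. MYLPF was above the no-target level on 1 of the 7, and with signals raised to that level the log2 difference was 6.85. MYL2, the slow and ventricular regulatory light chain, was at 631 and at 15.9 to 241 with a median of 74.5, a log2 difference of 2.82. MYL1, the fast essential light chain, was at 12540 against 11.02 to 232 with a median of 90.7, a log2 difference of 7.08. MYL3, its slow counterpart, was at 362, which lay inside the range of the others, 75.3 to 398 with a median of 114.8. MYBPC1, the slow form of myosin binding protein C, was at 606 against 6.48 to 253 with a median of 19.9.

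Troponin, the calcium switch of the thin filament, has fast and slow forms of all 3 subunits on this array. TNNC2, fast troponin C, was at 11.1, 14895, 6.77 and 81.6 on KNP replicates 1 to 4 and at 159.7, 33.2, 39.9 and 19.5 on YS replicates 1 to 4. TNNC1, slow troponin C, was at 34.8, 347, 68.5 and 15.6 on the KNP arrays and at 88.2, 47.1, 12.4 and 33.0 on the YS arrays. For each subunit the single high array was KNP replicate 2, and the log2 difference was 8.16 for TNNC2 against 2.76 for TNNC1.

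TNNI2, the fast inhibitory subunit, was at 5680 on KNP replicate 2 and below the no-target level on all 7 others, between 4.35 and 37.6, which makes it at least 58.1-fold higher there. TNNI1, the slow form, was at 154 against 7.14 to 74.1 with a median of 11.4. TNNT3, the fast subunit that binds tropomyosin, was at 3292 against 5.06 to 73.2 with a median of 28.4, and its slow form TNNT1 at 520 against 3.89 to 127 with a median of 20.01. The log2 difference was 6.36 for TNNT3 and 3.79 for TNNT1, the smallest gap of the 6 pairs.

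In all 6 proteins with a fast and a slow form, the fast form differed more, by 2.57 (troponin T) to 5.78 (essential light chain) on the log2 scale. With signals raised to the no-target level, a setting added after the data were seen, the gap was 2.72 to 5.37. The slow forms then differed by 0.70 for TNNI1, 1.26 for MYL3, 1.84 for TNNC1, 2.13 for MYH7, 2.23 for MYL2 and 2.26 for TNNT1.

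**Figure D2:**
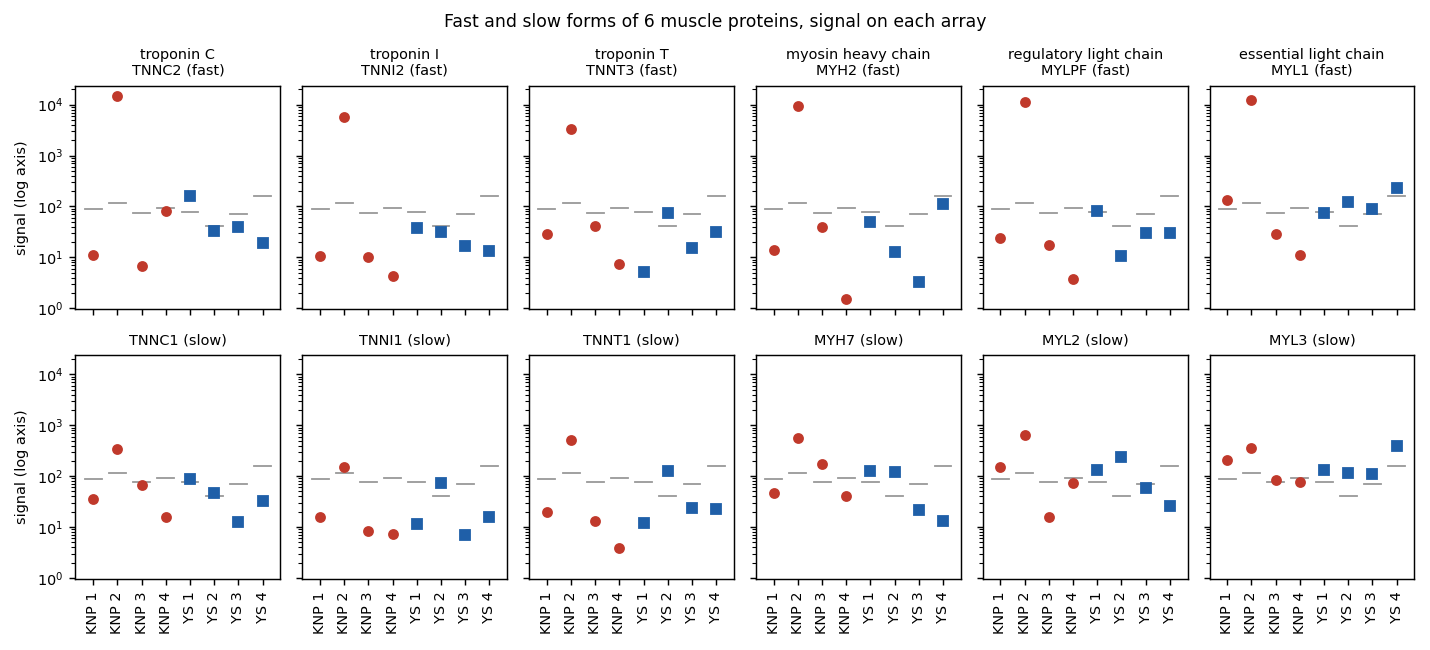
Signal (log axis) on each of the 8 arrays for the fast form (upper row) and the slow form (lower row) of 6 muscle proteins; circles are KNP arrays, squares YS arrays, and grey bars the no-target level of each array. Within each panel KNP replicate 2 is the highest point except for MYL3, and most other points lie near or below the grey bars.

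TPM3, which encodes the slow fibre tropomyosin and also tropomyosins of many non-muscle cells, showed no such difference. Its probe set had 3297 on KNP replicate 2 and 2857 to 4098 with a median of 3665 on the others, a difference of -0.15, and its other probe sets differed by -0.08 and -0.0032. The other tropomyosin genes, outside the 40, differed by probe set. The 3 TPM1 probe sets differed by -0.07, 0.14 and 3.20, and the 4 TPM2 probe sets by 0.27, 1.19, 1.62 and 4.80. Tropomyosin genes make muscle and non-muscle transcripts by alternative splicing, and the sources used here do not say which transcript each probe set reads.

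ATP2A1, the calcium pump of fast fibres (SERCA1), was at 1005 on KNP replicate 2 and at 8.03 to 114 with a median of 15.2 on the others, a log2 difference of 4.59. The 4 probe sets of ATP2A2, the pump of slow and cardiac muscle that is also made in most other cells, differed by -0.36 to 0.34. The other ATP2A1 probe set stayed below the no-target level on all 8 arrays and differed by 0.24. RYR1, the calcium release channel, was at 620 against 6.31 to 186 with a median of 50.4. SLN, sarcolipin, a small inhibitor of the calcium pump, was at 3007 against 90.6 to 238 with a median of 148.1, an 18.4-fold difference with an SD of 0.38 (log2) over the 7 arrays. CASQ2, the slow and cardiac calsequestrin, was below the no-target level on KNP replicate 2 with each of its 2 probe sets.

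The giant and Z-disc proteins, most of which both fibre types use, ranged widely. TTN, titin, the spring of the sarcomere, was at 4609 on KNP replicate 2 and at 6.35 to 101.7 with a median of 35.01 on the others, and another TTN probe set had a log2 difference of 5.53 beside 6.39 for this one. NEB, nebulin, which spans the thin filament, was at 2747 against 14.3 to 183 with a median of 95.5. MYOT, myotilin, a Z-disc protein, was at 783 against 4.36 to 226 with a median of 32.8. MYOZ1, the myozenin of fast fibre Z-discs, was at 2297 against 51.4 to 399 with a median of 95.4, a log2 difference of 4.18.

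The smallest differences of this class belonged to TCAP and ACTN2. TCAP, the titin cap, was at 1104 against 171 to 504 with a median of 252, a 4.05-fold difference. ACTN2, the alpha-actinin of all fibre types, was at 455 inside a range of 184 to 473 with a median of 254, and its other probe set was at 359 against 30.4 to 338. ANKRD1, a stress-responsive titin-binding repeat protein of muscle, was at 413 and under the no-target level on all 7 others, at least 4.38-fold higher. Its other probe set was below the no-target level on all 8 arrays.

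Among the metabolic genes, the enzymes of glycogen breakdown, glycolysis and phosphocreatine were high. ENO3, muscle beta-enolase, was at 7095 on KNP replicate 2 and at 6.98 to 83.8 with a median of 23.3 on the others, a difference of 7.24. ENO3 was above the no-target level on 1 of the other 7 arrays, and with signals raised to that level the difference was 6.16. CKM, the cytosolic muscle creatine kinase, was at 11960 against 59.0 to 344 with a median of 126, an 80-fold difference. PGAM2, muscle phosphoglycerate mutase, was at 2821 against 13.0 to 203 with a median of 58.6. PYGM, muscle glycogen phosphorylase, was at 3767 against 83.1 to 337 with a median of 146. PYGM had 4 probe sets, with differences of 4.53, 3.40, 0.57 and -1.12, and the last 2 were below the no-target level on KNP replicate 2.

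The 2 metabolic genes tied to oxidative or slow fibres differed less. CKMT2, the creatine kinase of muscle mitochondria, was at 431 against 12.3 to 113 with a median of 29.8, an 8.01-fold difference. CKMT2 was above the no-target level on 1 of the other 7 arrays, and with signals raised to that level the difference was 4.24-fold. CA3, carbonic anhydrase 3, is abundant in slow fibres and in fat cells. It was at 16919 on KNP replicate 2 and at 7685 to 27810 with a median of 14143 on the others, a difference of 0.27, and its second probe set differed by -0.37. All 8 arrays thus carried strong CA3 signal, and KNP replicate 2 lay within their range.

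**Figure D3:**
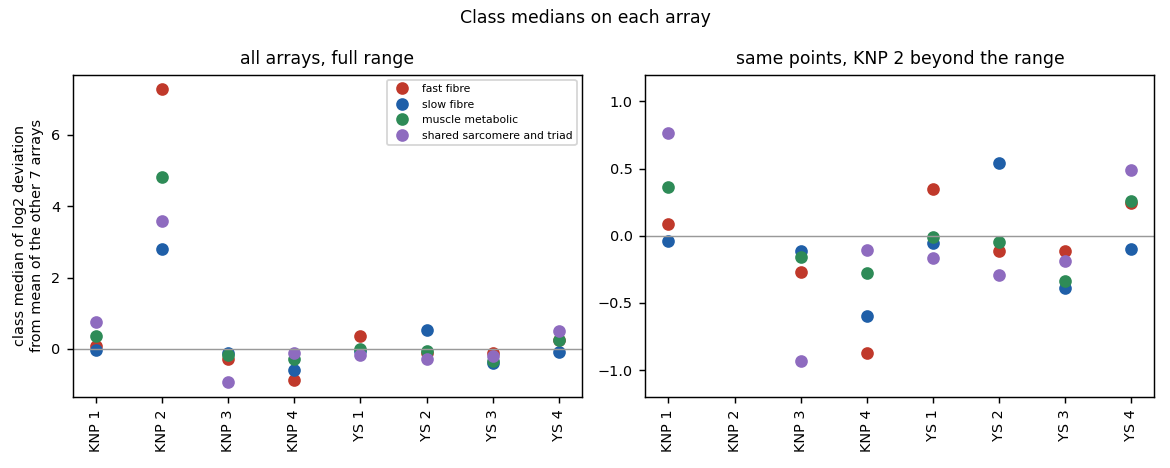
Median over the genes of each class of the log2 deviation from the gene's mean over the other 7 arrays (y axis) on each array (x axis); the right panel shows the same points on a narrower scale, where KNP replicate 2 lies beyond the range. KNP replicate 2 has medians from 2.79 (slow fibre) to 7.28 (fast fibre), and the other 7 arrays lie between -0.93 and 0.76.

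On the other 7 arrays most muscle probe sets were dim. All 4 class medians were below 0 on KNP replicates 3 and 4 and YS replicate 3, and 3 of 4 were above 0 on KNP replicate 1 and YS replicate 4. Class medians there lay between -0.93 (shared genes on KNP replicate 3) and 0.76 (shared genes on KNP replicate 1). KNP replicate 1 was the highest of the 7 for 3 of 8 shared genes and 3 of 6 metabolic genes, among them RYR1 at 186, TTN at 101.7, SLN at 238, CKM at 344 and PYGM at 337. YS replicate 4 was highest for 4 shared genes, 3 fast genes and 2 metabolic genes. These are also arrays with a high 3'/5' difference and the highest median signals, and the part of either in the muscle values was not tested.

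YS replicate 2 differed in another way: its slow fibre median was 0.54 and its fast fibre median -0.11. There TNNT1 was at 127, TNNI1 at 74.1 and MYL2 at 241, each the highest of the 7. MYH7 at 120 and TNNC1 at 47.1 were above their medians over the 7, 46.6 and 34.8, but not the highest. MYBPC1, MYL3 and TPM3 were at their medians over the 7, 19.9, 114.8 and 3665. Outside the slow genes, the fast gene TNNT3 at 73.2 and the shared gene NEB at 183 were also highest on this array. On this array 7 of 8 slow fibre genes and 3 of 8 fast fibre genes were above the no-target level, which was the lowest of all arrays, 40.6. On KNP replicate 4, by contrast, 0 of 8 fast fibre genes and 1 of 8 slow fibre genes were above it.

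Other muscle genes were high on KNP replicate 2 in part. Of 30 further skeletal muscle genes with a probe set, 8 were at least 4-fold above the mean of the other arrays, 14 exceeded all others, and the median difference was 0.52. Over all 6765 named genes, 63 (0.931%) were at least 4-fold higher and 1014 exceeded all other arrays. The M-line protein MYOM2 was at 1001 against 5.68 to 125, KLHL41, a sarcomere-stabilising Kelch protein, at 723 against 5.64 to 157, and the actin-binding XIRP2 at 1616 against 57.8 to 410. Dystrophin (DMD), at 89.5 against 112 to 212, had the lowest difference, -0.64. Of 20 further energy genes, 2 were at least 4-fold higher: AMPD1, the muscle AMP deaminase, at 836 against 3.34 to 103, and COX8H, a muscle form of a cytochrome oxidase subunit, at 467 against 20.2 to 196. Many of these genes are also active in other cells.

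Factors that set muscle identity and genes of the heart showed no difference of this size. Of 9 myogenic regulators, 0 were 4-fold higher, where 63 of 6765 named genes (0.931%) were. A count of 0 in lists this short is near that share. The regulators' median difference was -0.48, that of a gene below the no-target level on all 8 arrays. Only 4 of the 9 were above that level on KNP replicate 2, among them MYF6 at 136 against 6.33 to 232. The largest difference was that of MYOD1, which stayed below the no-target level on KNP replicate 2. Of 7 heart genes, 1 was above the no-target level on KNP replicate 2, the cardiac troponin I gene TNNI3 at 163, and 0 were 4-fold higher. Cardiac troponin T (TNNT2) was at 48.0 and the natriuretic peptide NPPA at 5.82.

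Markers of other cell types in the same array showed no like rise in their medians. Over all 6765 named genes, 63 (0.931%) were at least 4-fold higher, so a count of 0 in any of these short lists says little. Of 8 smooth muscle genes, 0 were 4-fold higher, the median difference was 0.08, and their summed signal was 31215 on KNP replicate 2 against 23647 to 48443 on the others. Of 13 adipocyte genes, 0 were 4-fold higher, the median was 0.51, and the summed signal was 188874 against 136326 to 207379. The largest differences among these were 0.86 for CEBPA, 0.78 for DGAT2 and 0.71 for SCD, and the smallest was -1.99 for adiponectin (ADIPOQ). ADIPOQ was at 431 on KNP replicate 2, 156 on KNP replicate 1, 564 on YS replicate 4 and 2302 to 5458 on the other 5. The first 3 are the arrays with the highest 3'/5' difference. SCD was highest on KNP replicate 1, at 96882. The part of RNA quality in these values was not tested. The medians of 4 nerve genes, 5 skin genes, 3 red blood cell genes, 9 endothelial genes, 8 matrix genes and 8 immune genes were 0.57, -0.69, -0.97, 0.0029, -0.08 and -0.45, and 0 of these genes were 4-fold higher. On KNP replicate 2 only 1 of the 5 skin genes and 1 of the 3 red blood cell genes were above the no-target level. The skin and red blood cell medians are those of genes below it there. The 3 red blood cell genes summed to 513 on KNP replicate 2 and to 559.9 to 1000.4 on the others. Of these, ALAS2 was at 48.9, below the no-target level, against 192 to 476, a log2 difference of -2.09. HBB was at 454, inside the range of 294 to 799 on the others, a difference of -0.19. The summed signal of the 8 fast fibre genes was 60617 on KNP replicate 2 and 169 to 869 on the others. For the slow fibre genes it was 6471 against 3580 to 4632, and for the metabolic genes 42993 against 8127 to 28539.5. For the shared genes it was 13739.5 against 635 to 1661. Each sum is weighted to the brightest probe sets of its list and can be compared only between arrays.

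**Figure D4:**
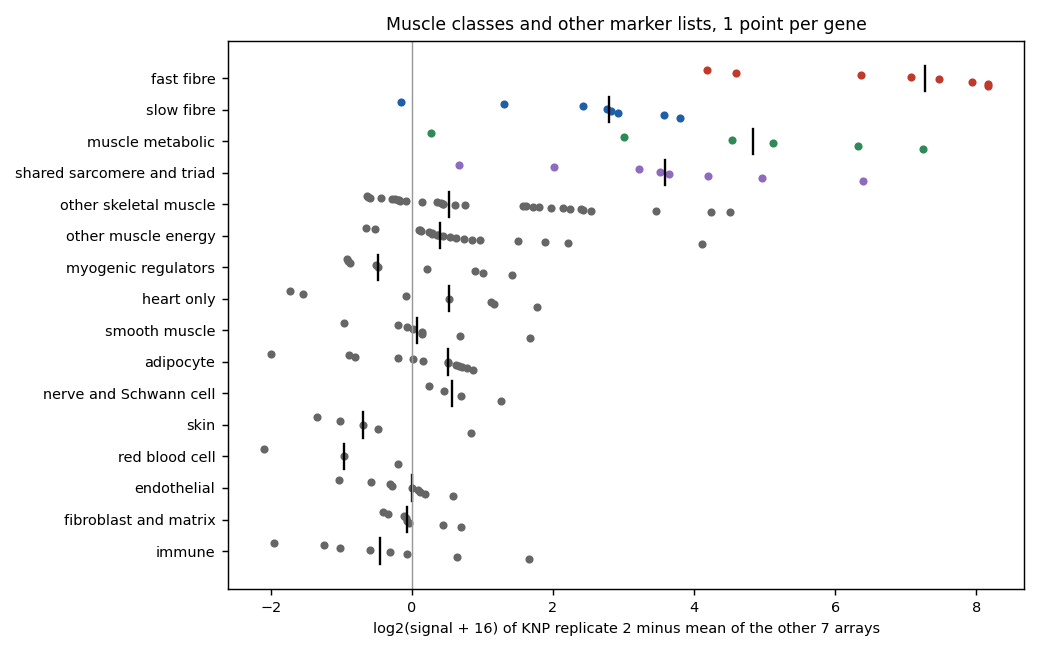
Difference in log2(signal + 16) between KNP replicate 2 and the mean of the other 7 arrays (x axis) for each gene of the 4 muscle classes and of 12 other lists (y axis); 1 point is 1 gene and the black bar is the list's median. The 4 muscle classes have medians from 2.79 to 7.28, and the medians of the other lists lie between -0.97 and 0.57.

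All 23999 probe sets were ranked by the difference of KNP replicate 2 from the other arrays. Of the first 10, 8 belonged to the 40 genes, as did 14 of the first 20. These genes have 40 of the 23999 probe sets. The ranking uses the contrast that chose the genes, so these counts are a description and no test. Of the first 50, 23 belonged to the 40 genes, 6 to the further muscle and energy lists, and 15 had no symbol. Of the 213 probe sets at least 4-fold higher, 123 had no symbol and were not named. Over the whole array, 13732 of 23999 had no symbol.

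For the muscle genes the comparison of the breeds turned on this array. In limma, 0 of 40 muscle probe sets passed an adjusted p of 0.05 between KNP and YS with no filter, and 0% of all 23999 did; at an unadjusted p under 0.05 there were 2 of 40, a probe set of MYBPC1 and a dim one of PYGM, against 3.06% of all. After the 25% of probe sets with the lowest mean were left out, 29 muscle probe sets remained, of which 0 passed and 1 had an unadjusted p under 0.05, against 2.84% of 17999. The 11 that were left out include TNNI2 and TNNT3, with high signal on a single array. Probe sets of CKMT2, ENO3, MYBPC1, MYH2, MYLPF, MYOT, RYR1, TNNC2 and TTN passed the filter only with KNP replicate 2 included. That array chose the genes and enters every p-value here, so the counts are a description and no test against all probe sets. Over the 30 genes the median log2 difference KNP minus YS was 0.98, with 27 genes higher in KNP, beside 0.0095 over all named genes. In 0 of 30 genes were the 4 KNP and 4 YS values free of overlap, as they were for 1.92% of all probe sets.

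Without KNP replicate 2 the median was -0.13, beside 0.0097 over all named genes. In KNP 20 of 30 genes were lower, beside 3296 of 6765 named genes. The median of the fast fibre genes went from 1.43 to -0.67 and that of the slow fibre genes from 0.29 to -0.25. For the metabolic genes it went from 1.18 to -0.0014 and for the shared genes from 1.06 to 0.02. On these 7 arrays 6 of the 8 fast fibre genes were above the no-target level on at most 1, so their median rests on dim values. Of 20 muscle probe sets that then passed the filter, 0 had an adjusted p under 0.05 and 0 an unadjusted one, against 2.86% of all. Breeds did not overlap for 2 genes, CKMT2 and TNNI2, each lower in KNP, against 3.82% of all probe sets. CKMT2 was at 12.3, 21.9 and 18.3 on the 3 KNP arrays and at 66.4, 77.6, 29.8 and 113 on the YS arrays. Of these 7 arrays, CKMT2 was above the no-target level on 1 and TNNI2 on 0.

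The 1 muscle probe set with an unadjusted p under 0.05 after the filter, named after its value was seen, was that of MYBPC1. Its signal was 253, 606, 172 and 6.48 on KNP replicates 1 to 4 and 16.1, 19.9, 6.99 and 20.5 on YS replicates 1 to 4. The KNP mean on the log2 scale was 7.35 ± 2.04 and the YS mean 4.97 ± 0.31 (SD, n = 4). They differed by a log2 value of 2.38 ± 0.86 (SE) with a Benjamini-Hochberg adjusted p of 0.9998 in limma. This difference includes the array that chose the genes, and without that array the probe set did not pass the filter. MYBPC1 was thus high on 3 KNP arrays, but KNP replicate 4 was the lowest of all 8, and without KNP replicate 2 the difference was 1.73. Fast troponin C showed the effect of 1 array on the spread: TNNC2 had a log2 mean of 7.44 ± 4.39 in KNP with KNP replicate 2 and 5.29 ± 1.15 without it (n = 3), against 6.01 ± 1.005 in YS (SD, n = 4).

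**Figure D5:**
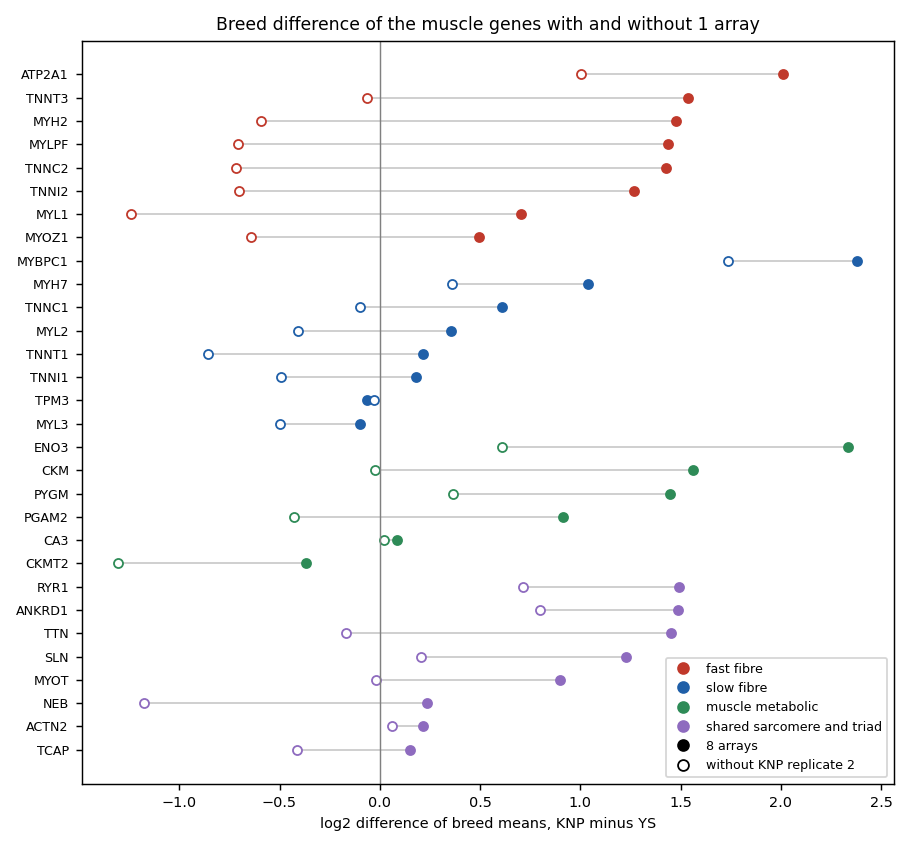
Difference of the breed means in log2(signal + 16), KNP minus YS (x axis), for the 30 muscle genes (y axis), coloured by class; filled points use all 8 arrays and open points leave out KNP replicate 2. With 8 arrays 27 of 30 genes lie above 0, and without KNP replicate 2 10 do.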

How the data were processed

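The deposited values were 1 intensity per probe set and array on a linear scale, which the authors had scaled to a mean of 500.1, trimmed by 2% at each end, as read from the values. The sources used here do not name the algorithm that summarised the probes. Of 24123 probe sets, 124 controls were left out. Probe sets were named from GEO's platform annotation (10069 probe sets with 1 symbol, 198 with several, 13732 with none); the 40 muscle probe sets all matched the RefSeq annotation of the pig by Entrez identifier, with 0 symbols changed. No detection calls, probe positions or sequences were used here.

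Values were transformed to log2(signal + 16). The breed comparison used limma 3.58.1 with statmod 1.5.0 under R 4.3.3 (a linear model with moderated variances, two-sided, no covariate, Benjamini-Hochberg adjustment over all probe sets tested, threshold 0.05). The fit was run on simulated data with independent normal values and shifts shared by all KNP arrays. That simulation held no lone outlying array, so it cannot show how the fit behaves with one. KNP replicate 2 against the other 7 arrays was described without a test. Members, classes and lists were chosen with earlier results of these data known. Any member could be named, from each other list the 3 largest differences and the smallest, and the 10 unlisted genes with the largest difference. CASQ2, ATP2A2, the tropomyosins and the gene CHRNA1 were added for comparison after values were seen, as was the probe set annotated ACTG1. Same-numbered arrays did not deviate together (correlations from -0.2029 to 0.0997), so replicate numbers were not used as pairs. Alternatives were pseudocounts of 1 and 64, quantile normalization, median centring, other filters, variance models, array weights, a replicate block, other probe sets and reference arrays, narrower classes and each array left out.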

Additional observations from a re-analysis of the deposited data

Results flagged for a closer look

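Within each breed, the highest or lowest of the 4 arrays was set against the other 3 for each of the 30 genes. In 11 of 60 such groups the gap took more of the group's range than Dixon's 95% critical value. Chance gives about 1 in 20 for independent values, but these genes share arrays. In 4 of the 11 the array was KNP replicate 2, whose high muscle signal chose the genes, so these 4 are a description and no test, and the count of 11 is not to be set against chance. They were TNNI2 (0.951 of the range), CKMT2 (0.894), MYLPF (0.888) and TNNI1 (0.845).

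YS replicate 4 stood apart upward among the YS arrays for MYOZ1 (0.944), MYL3 (0.885), TCAP (0.864), PGAM2 (0.854), MYOT (0.85) and ANKRD1 (0.844). This array had the highest median signal, 263, and the highest no-target level, 161, and its ANKRD1 signal of 86.7 was below that level; the part of these in the 6 values was not tested. YS replicate 2 stood apart upward for TTN (0.877), at a signal of 80.8.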

How the results depend on the processing

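The count of 0 muscle probe sets and of 0 probe sets in all past an adjusted p of 0.05 was the same in all 17 alternatives, the replicate block among them (0 and 0, with 1 muscle probe set at an unadjusted p under 0.05). The median breed difference of the muscle genes was 0.98 with and without the block and ran from -0.13 (without KNP replicate 2) to 1.56 (without KNP replicate 3) with 1 array left out. Without KNP replicate 2 itself the difference of that array has no value. With 1 of the other 7 arrays left out, medians ran from 7.07 to 7.38 for fast fibre genes, 2.65 to 2.93 for slow, 4.76 to 4.96 for metabolic and 3.34 to 3.86 for shared genes, and the fast minus slow gap of 4.49 from 4.35 to 4.73.

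These values moved by more than the SD over the other 7 arrays; where neither the scale nor the genes used changed, the cause was not tested. With a pseudocount of 1 the medians were 7.98 (fast), 3.29 (slow) and 4.25 (shared), and with 64 they were 6.28, 2.11 and 2.72, with 4.29 for metabolic genes. With signals raised to the no-target level, an alternative chosen after seeing the data, they were 6.24, 1.99 and 2.71. With only genes above that level on at least 4 of the other 7 arrays, which left 2 fast and 2 slow genes, they were 5.63 and 0.57, a gap of 5.05. The fast genes left were MYL1 and MYOZ1. The slow ones were MYL3 and TPM3, and TPM3 also encodes tropomyosins of many non-muscle cells. Averaging the probe sets of each gene gave 4.06 for metabolic genes. Against the other 3 KNP arrays the fast median was 7.83 and the gap 5.13, and against the 4 YS arrays the fast median was 6.86. Signal over background limits every fold of the dim probe sets.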

Other observations

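The largest difference of KNP replicate 2 over all probe sets was not in the 40 genes. A probe set annotated with ACTG1, which encodes the cytoplasmic gamma actin of all cells, was at 30014 on KNP replicate 2 and at 16.4, 94.9 and 7.26 on the other KNP arrays and 254, 358, 99.8 and 14.6 on the YS arrays, a log2 difference of 8.48. The other 5 ACTG1 probe sets differed by -1.82 to 0.34, and the brightest of them was at 24165 against 13983 to 23098. Actin transcripts are close in sequence, and ACTA1, skeletal actin, had no probe set of its own; whether this probe set reads skeletal actin was not tested.

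Among genes in no list, PRM1, annotated as a sperm protamine, was at 1594 on KNP replicate 2 and at 7.14 to 25.6 on the others, below the no-target level on all 7. The next largest differences were those of CST6, at 473 against 7.93 to 108, USP2, at 315 against 7.81 to 69.0, and IGFALS, at 241 against 7.19 to 159. Smaller differences were those of SH3BGR, at 1355 against 146 to 300, and CMYA5, at 635 against 56.5 to 164. TMOD4, a tropomodulin of skeletal muscle, was at 468 against 33.0 to 131.

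CHRNA1, the alpha subunit of the muscle acetylcholine receptor, had another pattern. It was at 3630 on KNP replicate 2, but also at 1742, 1997 and 2275 on YS replicates 1 to 3, against 346, 125 and 455 on the other KNP arrays and 372 on YS replicate 4. The secreted protein C1QTNF3 was at 2345 on KNP replicate 2 and at 644, 1803 and 902 on YS replicates 1 to 3, against 95.6 to 237 on the other 4 arrays. On YS replicates 1 to 3 the fast fibre medians lay between -0.11 and 0.35.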
